A study of Mus musculus with 9 samples.

Results

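The C1q/TNF-related proteins are secreted proteins encoded by the C1qtnf genes, and 8 of these genes, C1qtnf1 to C1qtnf7 and C1qtnf12, are described here out of the 39179 genes listed for each library. They were chosen by family name together with their values in the comparison of the 2 ages, so their levels and age differences are a description and carry no test. RNA came from laser-microdissected single capillaries of the femoral ossification front (OF), cut together with the cells around them, from juvenile (4 weeks, n = 5) and adult (12 weeks, n = 4) mice. All mice of both ages were Tg(TIE2GFP)287Sato/J reporters, labelled as C57BL/6 in origin, in which GFP driven from the Tie2 promoter marked the endothelium for cutting. A library therefore holds endothelial and perivascular RNA together, and fewer cells of a type cannot be told apart from less RNA per cell. The labels do not say whether each library is 1 mouse, and the spread between libraries may be partly technical.

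Each of these proteins carries a globular head related to that of complement C1q and of tumour necrosis factor. In most members the head follows a collagen-like tail in which glycine recurs at a fixed spacing, and the chains assemble into trimers and larger complexes. Adiponectin, the fat-derived hormone, has the same build. Several members circulate and act on metabolism, inflammation or the vessel wall, and many of their reported effects run through AMP-activated protein kinase (AMPK).

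Library totals were 4856833 to 8077362 counts, and 3 counts corresponded to 0.347 to 0.638 CPM, the counts scaled to a common library size, after scaling by the trimmed mean of M values (TMM). This limit covers counting error only, since amplified reads are not independent molecules. Markers of endothelium were present in both ages, with summed levels of 626 to 961 CPM in juvenile and 772 to 979 CPM in adult mice over 10 genes, and 0 of them differed between the ages at an adjusted p under 0.05 in edgeR. Osteoblast markers took 169579 to 211526 CPM in juvenile and 61884 to 92507 CPM in adult mice. All 7 neutrophil and 6 of 7 erythroid markers tested were higher in adult mice. Adult replicate 2 stood apart in having the most chondrocyte RNA, at a summed 4402 CPM against 595 to 1026 CPM in the other adult libraries, and the least neutrophil RNA, at 91.4 CPM against 3521 to 4402 CPM. Juvenile replicates 4 and 5 were the only 2 libraries with more counts on the Y-linked Ddx3y than on Xist, and the adult group has no such library.

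The collagen-like tail can be read from the reference coding sequence. The sequences that follow are the longest unbroken runs of glycine-X-Y codon triplets in the 3 members with substantial counts and in C1qtnf5, whose sequence matters for its count, with the glycine codons in capitals. They are from the GENCODE transcripts of GRCm38, and each run crosses at least 1 intron except that of C1qtnf12.
C1qtnf6, minus strand, chr15:78525274-78527228: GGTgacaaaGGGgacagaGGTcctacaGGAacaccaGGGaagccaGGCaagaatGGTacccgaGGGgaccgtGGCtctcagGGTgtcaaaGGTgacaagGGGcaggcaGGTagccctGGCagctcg
C1qtnf1, plus strand, chr11:118446640-118447925: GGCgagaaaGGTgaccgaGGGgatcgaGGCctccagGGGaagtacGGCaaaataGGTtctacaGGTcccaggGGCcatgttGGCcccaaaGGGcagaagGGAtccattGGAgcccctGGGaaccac
C1qtnf12, plus strand, chr4:155964771-155964842: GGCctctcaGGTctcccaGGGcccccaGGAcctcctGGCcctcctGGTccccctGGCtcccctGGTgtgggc
C1qtnf5, plus strand, chr9:44107845-44108374: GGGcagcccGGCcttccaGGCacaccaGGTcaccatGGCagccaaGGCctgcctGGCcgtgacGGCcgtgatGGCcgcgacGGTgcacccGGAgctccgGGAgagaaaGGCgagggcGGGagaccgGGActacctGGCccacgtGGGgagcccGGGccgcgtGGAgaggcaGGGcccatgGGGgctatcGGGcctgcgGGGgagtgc

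C1qtnf6 and C1qtnf1 had runs of 14 triplets in coding sequences of 264 and 281 codons, and C1qtnf12 had a run of 8 in 308 codons. Among the other members, the run was 34 triplets long in C1qtnf2 and C1qtnf7, 23 in C1qtnf3 and C1qtnf5, and 2 in C1qtnf4. C1qtnf4 is known to have a pair of C1q heads in place of a tail. The members that were abundant in the OF were thus not those with the longest runs, although 3 members are too few to relate run length to level. A run is the longest unbroken stretch and need not be the whole tail. The level of C1qtnf5 could not be measured, as described below.

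Of the 8 members, 3 passed the filter on low counts (C1qtnf1, C1qtnf6 and C1qtnf12). In the fit across all genes, 1 of the 8 had an adjusted p under 0.05, as did 3.88% of the 13418 genes tested (1.99% toward juvenile and 1.89% toward adult mice). With DESeq2 the share of all genes was 9.47%, and the member called was the same. It was C1qtnf6, which was also the 1 member whose juvenile and adult libraries did not overlap, against 9.15% of all genes tested in either direction, 5.07% with the juvenile libraries on top and 4.08% with the adult ones on top. Nothing is read from these counts, because the same comparison was used to choose the members.

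C1qtnf6 (ENSMUSG00000022440, minus strand of chromosome 15, 78523346 to 78531416) encodes CTRP6, reported as an inhibitor of the alternative complement pathway. Its level was 295, 294, 248, 323 and 283 CPM in juvenile replicates 1 to 5 and 111, 142, 110 and 121 CPM in adult replicates 1 to 4. Every juvenile library lay above every adult library. Juvenile libraries averaged 289 ± 27.3 CPM (SD, n = 5) and adult libraries 121 ± 15.1 CPM (SD, n = 4). On the log2 scale juvenile mice were higher by 1.25 with a standard error of 0.16, or 2.39-fold. Without the 2 libraries with Y-linked counts the log2 fold change was 1.21, and with adult replicate 2 left out it was 1.32. The level varied little within an age. Its SD on the log2 scale was 0.14 in juvenile and 0.17 in adult libraries, lower than for all but 2.91% and 3.49% of the genes tested, for which the median SD was 0.51 and 0.70. Those genes were not matched to C1qtnf6 for level, on which the SD also depends.

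The summed level of 10 osteoblast markers also separated the ages, and Col1a1 and Col1a2, the chains of type I collagen, made up 72.7% to 88.0% of it in each library. Of the 10 markers, 4 were higher in juvenile and 1 in adult mice at an adjusted p under 0.05 in edgeR. Per 1000 CPM of the summed markers, C1qtnf6 was at 1.46 to 1.67 CPM in the juvenile and at 1.21 to 1.96 CPM in the adult libraries (1.55 ± 0.09 and 1.49 ± 0.34, mean ± SD), and the ages overlapped. The mean log2 CPM of the same markers overlapped between the ages, at 10.23 to 10.99 in juvenile and 10.06 to 10.65 in adult libraries, so subtracting it left the C1qtnf6 difference largely as it was (-2.48 ± 0.29 against -3.50 ± 0.38 log2 units). With that mean subtracted, the ages did not overlap, at -2.77 to -2.03 in juvenile and -3.85 to -3.14 log2 units in adult libraries. Juvenile replicate 1, where 1 of the 10 markers was at 0 counts, had the lowest juvenile mean (10.23) and gave the -2.03. That 0 lowers its mean log2 CPM. Relative to the osteoblast markers, the C1qtnf6 difference thus depended on how the markers were summarised. The part of the osteoblast share in the C1qtnf6 difference was not tested.

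**Figure D1:**
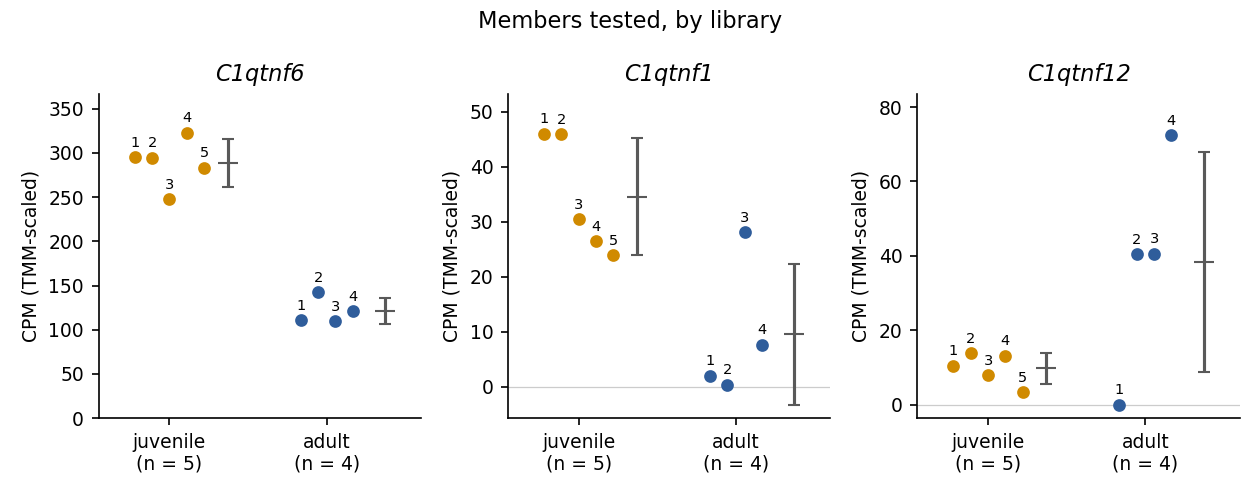
Level of C1qtnf6, C1qtnf1 and C1qtnf12 in each library, in TMM-scaled CPM on a linear axis. Points are libraries numbered by replicate, and the bar beside each group is the mean ± SD. C1qtnf6 separates the ages, at 248 to 323 CPM against 110 to 142 CPM, whereas adult replicate 3 for C1qtnf1 and adult replicate 1 for C1qtnf12 lie apart from the other adult libraries.

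C1qtnf1 (ENSMUSG00000017446, plus strand of chromosome 11, 118428203 to 118449963) encodes CTRP1, made in fat and in the vessel wall and reported to limit platelet aggregation on collagen. Its level was 46.0, 46.0, 30.4, 26.5 and 24.0 CPM in juvenile replicates 1 to 5. In adult replicates 1 to 4 it was 1.97, 0.334, 28.1 and 7.64 CPM, from 17, 2, 227 and 61 counts. Adult replicate 3 lay within the juvenile range and the other 3 adult libraries lay below it. The means were 34.6 ± 10.7 CPM (SD, n = 5) and 9.51 ± 12.8 CPM (SD, n = 4), and the log2 fold change was 1.86 with a standard error of 0.84. That value rested on adult replicate 3, since without it the log2 fold change was 3.34 (standard error 0.77), and with any other library left out it was 1.44 to 1.96. It was 3.02 with limma voom quality weights and 3.09 with the replicate number as a block. The juvenile libraries with Y-linked counts were the lowest of their age, and without them the log2 fold change was 2.10.

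The exons of C1qtnf1 share 642 of their 3131 bases (20.5%) with Gm11747, an antisense gene on the minus strand of chromosome 11. These bases are 39.0% of the 1648 exon bases of Gm11747, and the rest of its exon bases lie outside exons of C1qtnf1. The libraries were made with a kit that does not mark the strand, and the strand setting of the counting is not given in the sources used here, so reads of the overlap cannot be assigned to either gene. Gm11747 had 27 to 71 counts in the juvenile libraries, 30 in adult replicate 3 and 0 in adult replicates 1, 2 and 4. Its counts were thus at 0 in the same 3 adult libraries in which C1qtnf1 was low. Over all libraries it was higher in juvenile mice by 3.39 log2 units (SE 1.41), with an adjusted p = 0.226 in edgeR.

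C1qtnf12 (ENSMUSG00000023571, plus strand of chromosome 4, 155962318 to 155966629) encodes CTRP12, or adipolin, an adipokine known for improving insulin sensitivity in mice. Its level was 10.5, 13.8, 7.87, 13.1 and 3.39 CPM in juvenile replicates 1 to 5. In adult replicates 2, 3 and 4 it was 40.4, 40.6 and 72.4 CPM, from 242, 328 and 578 counts, whereas adult replicate 1 had 0 counts. The adult libraries thus fell on both sides of the juvenile range. Adult replicate 1 had the highest library total, and by counting error alone its 0 allows a level of up to 0.347 CPM. It also had the fewest genes with a count, 14983 against 15263 to 16566 in the other libraries. Juvenile libraries averaged 9.75 ± 4.26 CPM (SD, n = 5) and adult libraries 38.4 ± 29.7 CPM (SD, n = 4), and the log2 fold change was -1.97 with a standard error of 0.96, or 3.92-fold higher in adult mice. With adult replicate 1 left out it was -2.40 (standard error 0.45), and with any other library left out it was -2.13 to -1.48. It was -0.81 with limma voom quality weights and -1.11 with the replicate number as a block. The within-age SD on the log2 scale was 0.79 in juvenile and 3.68 in adult libraries, and 99.9% of the genes tested varied less among the adult libraries.

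The 0 of C1qtnf12 was not alone in that library. In adult replicate 1, 124 genes, C1qtnf12 among them, had 0 counts while each of the other 8 libraries had at least 10. The same number was 1 to 24 genes in the juvenile libraries and 59, 66 and 17 genes in adult replicates 2, 3 and 4. The part of this in the value of C1qtnf12 was not tested. Osteoblast marker RNA in adult replicate 1, at a summed 88020 CPM, was within the range of the other adult libraries.

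Likeness between genes was measured as Pearson's r of log2 CPM after the mean of each age was removed, over the 9 libraries and 9877 genes with a mean of at least 10 CPM. With C1qtnf12, the 3 highest values were those of Chac2 (r = 0.99), C130074G19Rik (r = 0.99) and Pon2 (r = 0.98), which had 0, 1 and 109 counts in adult replicate 1. With C1qtnf1 they were those of B3glct (r = 0.98), Prkra (r = 0.97) and Anapc2 (r = 0.97). With C1qtnf6 they were those of Taok3 (r = 0.95), Zbtb17 (r = 0.94) and Arcn1 (r = 0.93), the last a coatomer subunit. All genes of a library share its depth and its cell makeup, and the highest of 9877 values of r over 9 points are high by selection.

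Levels of different genes were compared per kilobase of annotated exons. In juvenile mice the order was C1qtnf6 at 107 ± 10.1 CPM per kb (SD, n = 5), C1qtnf1 at 11.0 ± 3.41 and C1qtnf12 at 7.14 ± 3.12. C1qtnf6 was above both others in 5 of 5 juvenile libraries, whereas C1qtnf1 and C1qtnf12, neighbours in this order, differed by 0.69 ± 0.62 log2 units, little more than 1 SD, with C1qtnf1 higher in 4 of 5 libraries. In adult mice C1qtnf6 was at 44.8 ± 5.57 CPM per kb (SD, n = 4), C1qtnf12 at 28.1 ± 21.7 and C1qtnf1 at 3.04 ± 4.08. C1qtnf6 lay above C1qtnf12 in 3 of 4 adult libraries, by 2.13 ± 3.61 log2 units. That mean rested on adult replicate 1, where C1qtnf12 was at 0 and the prior count set the difference, and without it the difference was 0.34 ± 0.54 log2 units, within its spread. C1qtnf1 was above C1qtnf12 in 1 of 4 adult libraries, the 1 where C1qtnf12 was at 0. Over the 9 libraries, the mean level per kb of C1qtnf6 was higher than that of 95.3% of the 13282 tested genes with a length, and C1qtnf12 and C1qtnf1 were higher than 78.7% and 59.0%.

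Of the 14371 counts on the 8 members in all libraries together, C1qtnf6 took 80.4%, C1qtnf12 9.92% and C1qtnf1 8.89%, and the other 5 members held 111 counts, or 0.772%. C1qtnf6 took 86.4 ± 3.43% of them (SD, n = 5) per juvenile library and 73.1 ± 15.7% (SD, n = 4) per adult library. C1qtnf1 took more than C1qtnf12 in juvenile libraries, on average 10.3% against 2.86%, and less in adult libraries, on average 5.34% against 20.1%. The share of C1qtnf12 was 1.08% to 3.87% in juvenile libraries and 0% in adult replicate 1 (upper limit of the exact interval 0.358%). In adult replicates 2, 3 and 4 it was 22.1%, 22.7% and 35.8% (exact binomial 95% confidence intervals 19.7% to 24.7%, 20.6% to 25.0% and 33.4% to 38.2%, counting error only). The makeup of the family thus varied less among the juvenile than among the adult libraries. Summed over the 8 members, the level was 286 to 364 CPM in juvenile and 119 to 202 CPM in adult libraries. The ages did not overlap, as for C1qtnf6. Among adult libraries the sum did not keep the order of C1qtnf6. It was highest in replicate 4, where C1qtnf12 was highest, and lowest in replicate 1, where C1qtnf12 was at 0.

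**Figure D2:**
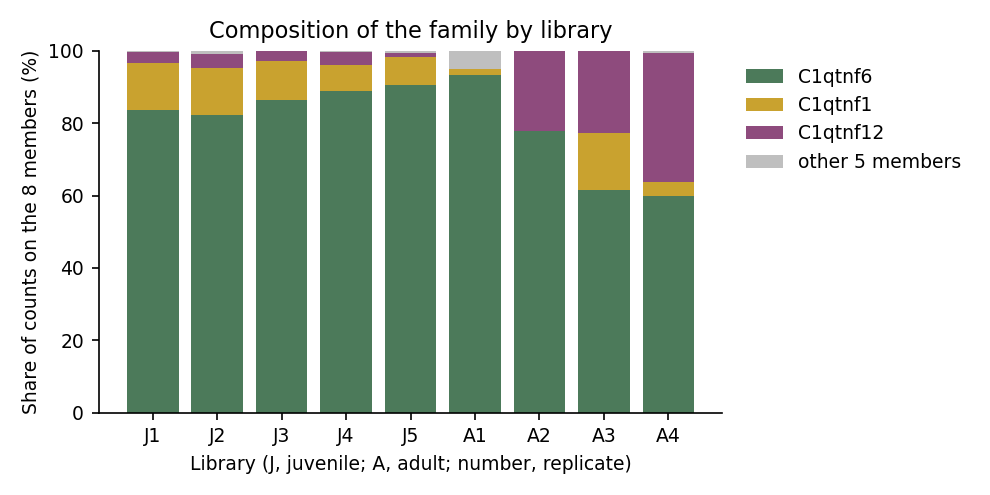
Share of the counts on the 8 C1qtnf members that fell on each gene, per library, in percent of raw counts that were not corrected for gene length. C1qtnf6 holds 82.3% to 90.5% in juvenile (J) libraries and 59.8% to 93.3% in adult (A) libraries, and C1qtnf12 is visible as a large part in adult replicates 2, 3 and 4.

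The remaining 5 members had few or no counts and did not pass the filter. C1qtnf3, also named cartducin and known from growth plate cartilage, had 2 counts in juvenile replicate 3 and 0 elsewhere. It was thus at 0 in adult replicate 2, the library with the highest level of the cartilage collagen Col2a1, at 3117 CPM. C1qtnf2, a metabolic adipokine, had 2 counts in juvenile replicate 1 and 0 elsewhere. C1qtnf4 had 4, 6 and 5 counts in juvenile replicates 1, 4 and 5 and 10 in adult replicate 4. C1qtnf7 had 24 and 6 counts in juvenile replicates 2 and 5 and 52 in adult replicate 1, where it reached 6.01 CPM, and 0 in the other 6 libraries. At these depths no difference between the ages was detectable for these 4 genes.

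C1qtnf5 was listed at 0 in all 9 libraries. The gene, mutated in a human late-onset retinal degeneration, lies on the plus strand of chromosome 9 from 44107245 to 44109187, inside Mfrp, which runs from 44101729 to 44109187 on the same strand. In the GENCODE annotation of GRCm38, all 1589 exon bases of C1qtnf5 (100%) are also exon bases of Mfrp, and the collagen run of C1qtnf5 printed above is found letter for letter in 3 of 6 Mfrp transcripts. A read from C1qtnf5 therefore cannot be told from a read of Mfrp. Mfrp, a membrane protein of the eye, had 11 counts in all libraries together. Both genes also share bases with Gm20444 on the opposite strand (chromosome 9, 44107301 to 44108879), whose 648 exon bases all lie inside exons of C1qtnf5. Gm20444 had counts in 9 of 9 libraries, 1215 in all, with 28.1 ± 8.68 CPM over the juvenile (SD, n = 5) and 13.6 ± 4.65 CPM over the adult libraries (SD, n = 4). The difference was 1.05 log2 units (SE 0.40), and edgeR gave an adjusted p = 0.185. Reads from this locus were thus present in every library, although the count of C1qtnf5 was 0. To which gene they belong was not tested. The kit does not mark the strand, so the counts listed for Gm20444 and their age difference cannot be assigned to Gm20444, C1qtnf5 or Mfrp. Mfrp also has exons upstream of C1qtnf5 that neither C1qtnf5 nor Gm20444 shares, and its 11 counts include any from those exons. The part of Mfrp in the counts listed for Gm20444 was not tested. The 0 is no measure of C1qtnf5 expression. Among all protein-coding genes whose exon bases lie wholly inside exons of other protein-coding genes, 37 of 65 (56.9%) were at 0 in every library, against 26.1% of the other 21161 protein-coding genes.

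**Figure D3:**
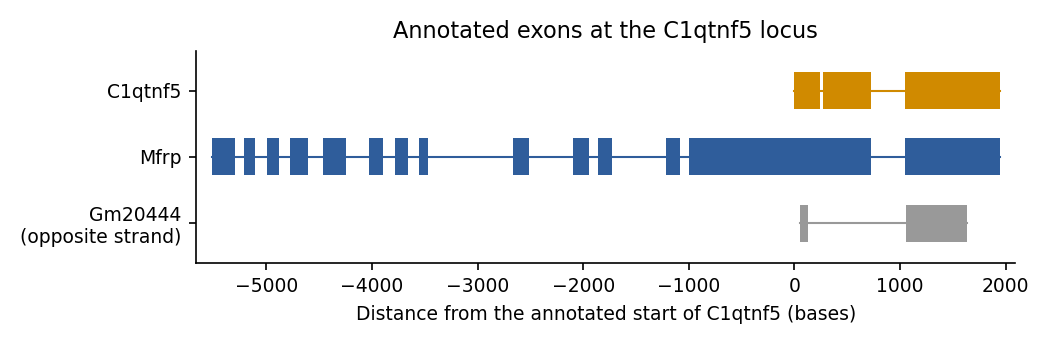
Annotated exons (boxes) of C1qtnf5, Mfrp and Gm20444, with the distance in bases from the annotated start of C1qtnf5 on the horizontal axis. Every exon of C1qtnf5 lies within the span of an exon of Mfrp, and both exons of Gm20444, which is on the opposite strand, lie inside exons of C1qtnf5.

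Other genes with a C1q domain were also compared between the ages. Their values did not enter the choice of members, although the list was drawn up with earlier results of these data known. Of 22 such genes, 12 were tested and 1 (Emilin1) had an adjusted p under 0.05, against 3.88% of all genes tested. The median log2 fold change of the 12 was -0.66, and that of all genes tested was -0.01. Emilin1, a glycoprotein of elastic fibres, rose in juvenile mice relative to adult mice, at 213 to 293 CPM against 126 to 180 CPM. The difference was 0.74 log2 units (SE 0.17), with an adjusted p = 0.0319 in edgeR, and over the 17 alternatives the adjusted p was 0.00107 to 0.212. It passed in 8 of them. The call was lost when juvenile replicate 1, 4 or 5 or adult replicate 2, 3 or 4 was left out.

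The chains of complement C1q itself, which macrophages make, had the largest differences of this list, all toward adult mice, but 0 of 3 passed in edgeR. C1qb passed with DESeq2 (adjusted p = 0.0357), with no filter on low counts, with the replicate block and without juvenile replicate 4. C1qa averaged 2.16 ± 3.86 CPM over the juvenile (SD, n = 5) and 53.0 ± 46.5 CPM over the adult libraries (SD, n = 4), C1qb at 4.38 ± 6.19 and 74.6 ± 63.7 CPM, and C1qc at 3.41 ± 3.25 and 54.8 ± 53.0 CPM. Their log2 fold changes were -4.61, -4.09 and -4.02, with adjusted p of 0.0815, 0.0513 and 0.097 from edgeR's quasi-likelihood test. Adult replicate 2 had 1 count of C1qa and 0 of C1qc, and with it left out all 3 chains passed, with adjusted p of 0.0226, 0.0259 and 0.0167. The 8 macrophage markers were at a summed 1105 to 1485 CPM in adult and 473 to 823 CPM in juvenile mice, and 4 of them were at 0 counts in adult replicate 2. Their part in the difference was not tested.

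Adipoq, the gene for adiponectin, ranged from 0 to 3.82 CPM over the juvenile and from 1.84 to 12.6 CPM over the adult libraries, a difference of -2.20 log2 units (SE 1.04) with an adjusted p = 0.302 in edgeR. C1qtnf9, its closest relative by sequence in the family, had 7 counts in juvenile replicate 3, 41 in adult replicate 3 and 0 elsewhere. The matrix genes Col8a1 and Col10a1 averaged 117 ± 61.9 and 294 ± 209 CPM over the juvenile (SD, n = 5), and 129 ± 109 and 223 ± 329 CPM over the adult libraries (SD, n = 4). Of the 22 genes, C1ql1, C1ql2, C1ql4, Cbln1, Cbln4 and Otol1 were at 0 in all libraries. Otol1 is known from the inner ear and the Cbln genes from the brain. Cbln3, in contrast, had counts in 9 of 9 libraries, averaging 2.80 CPM in juvenile and 1.81 CPM in adult libraries, and Cbln2 had 8 counts in all.

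**Figure D4:**
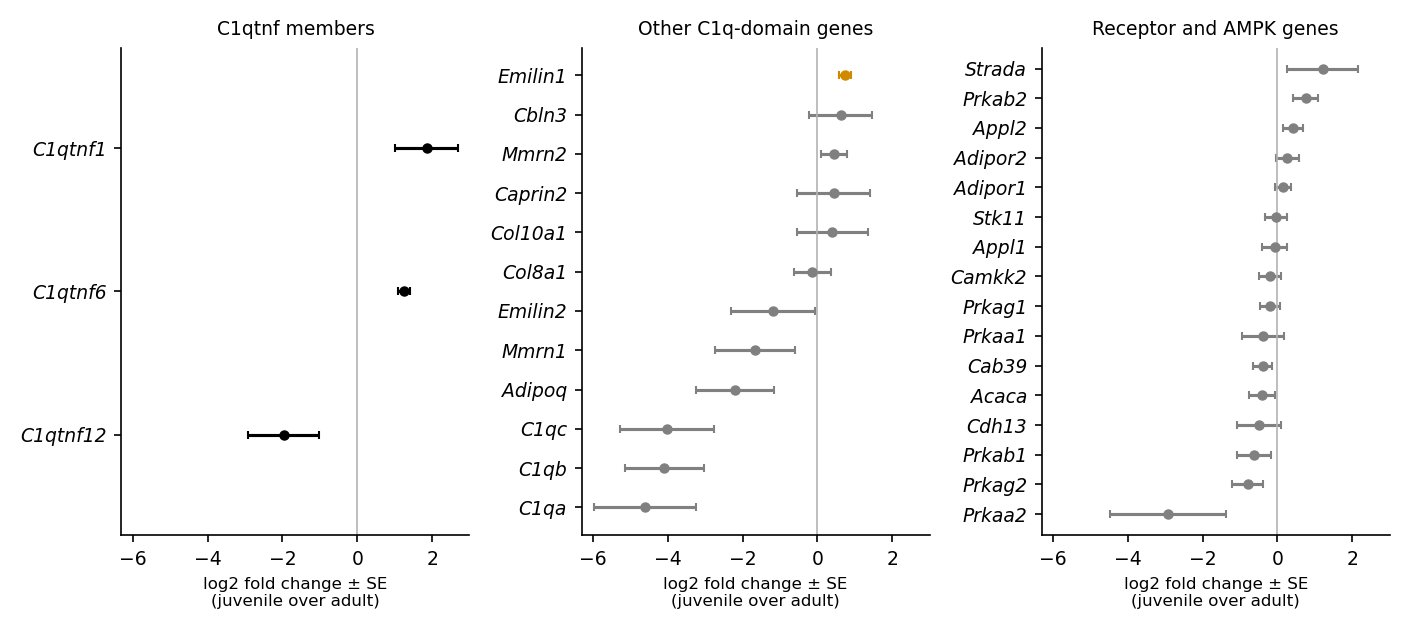
Log2 fold change (juvenile over adult) with its standard error for the tested genes of 3 lists, from edgeR's quasi-likelihood fit. In the lists of other C1q-domain genes and of receptor and AMPK genes, a coloured point marks an adjusted p under 0.05 and only Emilin1 has one. The members are in black because no test is attached to them.

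A last list held genes that adiponectin and its relatives are reported to act through, namely receptors, adaptors, AMPK subunits, upstream kinases and targets. Of 22 genes, 16 were tested and 0 had an adjusted p under 0.05 in edgeR, against 3.88% of all 13418 genes tested. In edgeR, 1 of the 16 had an unadjusted p under 0.05, as did 2321 of the 13418 genes. DESeq2 also called 0 of the listed genes, against 9.47% of all genes. At these shares, 0 calls among 16 genes says little about the list. The median log2 fold change of the 16 was -0.20. The adiponectin receptors were expressed in every library. Adipor1 averaged 146 ± 18.0 CPM over the juvenile (SD, n = 5) and 132 ± 38.9 CPM over the adult libraries (SD, n = 4), a difference of 0.14 log2 units (SE 0.22). Adipor2 averaged 38.1 ± 10.8 and 31.8 ± 7.91 CPM, a difference of 0.26 log2 units (SE 0.31). Cdh13, the T-cadherin that binds adiponectin at the endothelial surface, averaged 18.0 ± 10.2 CPM over the juvenile (SD, n = 5) and 25.4 ± 19.2 CPM over the adult libraries (SD, n = 4).

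Among AMPK subunits, the smallest p were those of the beta subunit gene Prkab2, at 47.9 ± 14.2 and 28.6 ± 11.8 CPM (log2 fold change 0.75, standard error 0.34, adjusted p = 0.272, edgeR), and of the gamma subunit gene Prkag2, at 15.9 ± 3.03 and 27.6 ± 14.8 CPM (log2 fold change -0.80, standard error 0.41, adjusted p = 0.345, edgeR). The catalytic subunit gene Prkaa1 was present in every library, at 13.6 to 22.5 CPM in juvenile and 3.34 to 40.1 CPM in adult mice. The other catalytic subunit gene, Prkaa2, was at 0 to 1.91 CPM in juvenile and 0 to 13.5 CPM in adult libraries (log2 fold change -2.93, standard error 1.55, adjusted p = 0.365, edgeR). Rxfp1, a receptor gene of the relaxin family, had 1 count in all libraries together, and Adgrb3, which binds C1q-like proteins in the brain, was at 0 in all of them.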

How the data were processed

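Per the labels and the study's methods, RNA was amplified with a SMART-Seq v4 kit, sequenced as paired-end reads and mapped to mm10 (GRCm38) by TopHat2 and Bowtie2 under their defaults, and the submitters' processing notes also name featureCounts. The authors deposited 1 table of raw counts per library, without normalization. The annotation release, strand setting and pair handling are not given in the sources used here. GENCODE M21 on GRCm38 supplied symbols, positions and lengths, and 96.0% of the identifiers had an entry. Of the listed symbols, 1 (Ahsp) was not matched.

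Ages were compared with edgeR 4.0.16 (filterByExpr, TMM, quasi-likelihood F test, Benjamini-Hochberg adjustment over 13418 genes) under R 4.3.3. Library sizes were the totals of the genes kept. CPM uses TMM-scaled sizes and log2 CPM a prior count of 2. Alternatives used DESeq2 1.42.0, the study's tool, limma 3.58.1, other scalings and filters, the replicate number as a block, and fewer libraries. No 2 libraries were copies of each other. Members and lists were chosen with earlier results of these data known. Named genes were the members, other listed genes with an adjusted p under 0.05 or the 2 smallest p, the 3 genes most like each tested member, and genes overlapping a member. Further genes of the lists were named after their values were seen. Protein sequences were not used here. Figures were drawn with matplotlib 3.10.9.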

Additional observations from a re-analysis of the deposited data

Results flagged for a closer look

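Among 62 groups of 4 or 5 libraries, formed by the tested members and listed genes within each age, 5 held a library past the 95% critical value of Dixon's outlier test, where chance gives about 3.1. None of these, taken on CPM, concerned a C1qtnf member. On log2 CPM, 4 groups held such a library, and 1 was C1qtnf12, at -1.69 in adult replicate 1 against 5.35 to 6.18 in the other adult libraries. The others were Col10a1, Adipor1 and Cab39. Col10a1 was at 667 CPM in juvenile replicate 3 against 195 to 211 CPM in the other juvenile libraries. C1qa and C1qb were at 9.01 and 15.0 CPM in juvenile replicate 4 against at most 1.06 and 3.99 CPM. Adipor1 was at 177 CPM in juvenile replicate 2 against 133 to 144 CPM. Cab39, a scaffold protein of the kinase upstream of AMPK, was at 34.6 CPM in juvenile replicate 1 against 61.7 to 69.4 CPM.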

How the results depend on the processing

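The values of the members are a description, since this comparison was used to choose them. C1qtnf6 had a log2 fold change of 1.19 to 1.32 over 17 alternatives. C1qtnf1 and C1qtnf12 kept their direction in 16 alternatives each, at 1.44 to 3.34 and -2.40 to -0.81, and could not be tested with a minimum of 10 counts in every library. Genes with an adjusted p under 0.05 numbered 520. They were 1490 with DESeq2, 73 without the 2 libraries with Y-linked counts and 262 to 651 with 1 library left out. Members called numbered 1 in every other alternative and 1 to 2 with 1 library left out. Other C1q-domain genes called were 2 with DESeq2, 0 without the 2 libraries with Y-linked counts and 0 to 3 with 1 library left out. With no filter or with the replicate block, C1qb passed in place of Emilin1. With the replicate number as a block, 89 genes passed, 86 of them among the 520. The replicate numbers come from the sample titles, which state no pairing. Deviations of same-numbered libraries correlated at -0.03 to 0.03, and those of different-numbered libraries at -0.05 to 0.06. Of 4 adult libraries, 2 correlated best with their own number. With all correlations this near 0, the check cannot exclude a pairing. Levels per kb of C1qtnf6 against C1qtnf1 and C1qtnf12 moved by less than the spread between libraries with the longest transcript as length or a prior count of 0.5. Depth limits statements on C1qtnf2, C1qtnf3, C1qtnf4 and C1qtnf7, and exon overlap limits those on C1qtnf5. Chosen after seeing the data were the scaling of C1qtnf6 to the summed osteoblast markers, the adult level order without replicate 1, and the search for libraries set apart on the log2 scale.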
